A study of Mus musculus with 6 samples.

Results

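Gpihbp1, Aplnr, Plvap, Kit, Cd93 and Lpl are 6 genes by which general capillary endothelial cells of the mouse lung are recognised. They were picked by gene symbol from the 32285 genes counted, and all 6 were found. Their counts were read in the deposited cell classes, endothelial classes first. Levels are given for classes with at least 50 cells in a library, and classes are ranked where both libraries of a condition had 50. The study followed recovery of the newborn lung from injury by high oxygen and compared the sexes. Whole lungs of wild-type C57BL/6N mice were dissociated, sorted for live cells and made into single-cell libraries that count transcripts as unique molecular identifiers (UMIs).

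There were 6 libraries, each from a pool of 3 mice of 1 sex, so every group had 1 library. The female and male room air libraries of postnatal day 1 came from newborns in 21% oxygen. The female and male room air libraries of day 21 came from pups kept in 21% oxygen throughout. The female and male hyperoxia libraries of day 21 came from pups exposed to 95% oxygen between day 1 and day 5, then returned to room air. No group had a replicate. The fits left 1 residual degree of freedom, or 2 where sex was compared over 6 libraries. The test used, edgeR, therefore draws each gene's variance towards a trend over all genes. Small p-values below rest on that shared trend and do not measure a gene's own spread between replicate libraries. Intervals given for a single library reflect counting error and nothing else. Where a library is left out below, the fits of hyperoxia, age and the difference between classes also leave out sex. A call lost there is not assigned to the library alone.

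The libraries held 122173482 to 163649658 UMIs, and 7074 to 11543 barcodes per library carried a deposited class and are called cells here. Their median depth was 8329 to 9703 UMIs per library. Libraries shared 9 to 37 cell barcodes in pairs, which was 0.127% to 0.376% of the smaller library. In the female hyperoxia library 863 of 2434 general capillary cells held no Xist UMI, at a median of 8021 UMIs in those cells. Xist is transcribed in female cells, and a cell can also lack its UMI by sampling, so whether these cells came from females was not settled. Female hyperoxia, sex and interaction values below are those of the library labelled female, and results that rest on it are also given without such cells where this changes a call. The day 1 counts were made with Cell Ranger 6.0.0 and the day 21 counts with 7.0.1, per the file headers, so a difference in counting and a difference of age cannot be told apart.

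The lung capillary bed holds a pair of endothelial cell types. General capillary cells (gCap) line much of the network, carry out the metabolic work of capillaries and can renew themselves and the other type, while aerocytes (aCap) are large, thin cells that face the air sacs. General capillary cells anchor lipoprotein lipase, which splits the triglycerides of circulating lipoproteins, and respond to the peptide apelin, which aerocytes secrete. Most of the genes that mark them are also used by endothelium of larger vessels.

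The deposited gCap and aCap names were checked against marker genes. A list of 10 other general capillary markers, among them Ptprb, Tek, Sema3c and Glp1r, summed to 4944 and 4531 CPM (a gene's UMIs relative to all UMIs of the class in that library, on the usual CPM scale) in the gCap class at day 1 (female and male). It summed to 13685 and 13323 CPM at day 21 without hyperoxia, then 12977 and 12442 CPM after it. A list of 12 aerocyte markers, such as Car4, Ednrb and Apln, reached 8006 to 9273 CPM in the aCap class at day 1 and 13934 to 14836 CPM at day 21, and stayed between 1533 and 2309 CPM in gCap. The gCap class held 1683 to 2060 cells per library at day 1, 1784 and 1425 at day 21 without hyperoxia, then 2434 and 2869 after it. On the general capillary list the arterial class summed to 8990 to 9780 CPM at day 1, above gCap. At day 21 it summed to 15266 to 16682 CPM in room air and 14751 to 14876 CPM after hyperoxia, again above gCap. The aCap class held 3972 to 3974 CPM at day 1. That list therefore did not set gCap apart from arterial endothelium. The lists of artery and vein markers did separate the classes in every condition. Artery markers summed to 3302 to 4150 CPM in the arterial class and 1391 to 1862 CPM in gCap. Vein markers summed to 2505 to 8999 CPM in the venous class and 331 to 443 CPM in gCap.

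Gpihbp1 encodes the protein that carries lipoprotein lipase across the capillary wall and holds it in the lumen. It lies at chr15:75596628-75599481 on the plus strand (GRCm38) and is a short gene. Over its 5 annotated transcripts, 10.5% of its length lay outside every exon, which is what intron shares mean for each gene here. An intron that an exon of another transcript covers is not counted, so the share within a single transcript can be larger. In gCap it stood at 923 and 1209 CPM at day 1 (female and male), 1132 and 1485 CPM at day 21 without hyperoxia, then 1207 and 1355 CPM after it. The male library was the higher in each pair. The arterial class held 449 and 585 CPM at day 1, 926 and 1170 at day 21 without hyperoxia, then 1026 and 1115 after it. At day 21 in room air the ranges of gCap and arterial cells overlapped. At day 1 and after hyperoxia gCap was above every other class. Venous cells reached 504 to 615 CPM at day 21, while aCap held 189 and 253 CPM in room air and 224 and 242 after hyperoxia.

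Lpl encodes lipoprotein lipase itself, the enzyme that Gpihbp1 protein binds. It lies at chr8:68880491-68907448 on the plus strand, with 61.1% of the gene in introns. In gCap it was at 159 and 138 CPM at day 1, 344 and 326 CPM at day 21 without hyperoxia, then 387 and 404 CPM after it. Both hyperoxia libraries lay above both room air libraries of the same age, and the day 1 libraries were lowest. Lpl was not highest in capillaries: arterial cells held 487 to 578 CPM at day 21, and alveolar macrophages, the resident phagocytes of the air sacs, held 1042 to 1605 CPM over the 6 libraries. Lpl was therefore the only one of the 6 genes whose highest class in every condition was outside the endothelium.

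Aplnr encodes the receptor for apelin. It lies at chr2:85136225-85139923 on the plus strand and has no intron. In gCap it was at 267 and 208 CPM at day 1, 200 and 192 CPM at day 21 without hyperoxia, then 185 and 153 CPM after it. At day 21 gCap was the class with the highest level. At day 1 the venous class was higher, at 658 and 521 CPM, and it stood at 78.6 and 75.2 CPM at day 21 without hyperoxia, then 61.7 and 53.7 CPM after it. The aCap class, whose cells are known to make the ligand, held 30.2 and 25.6 CPM at day 1 and 7.11 to 14.4 CPM at day 21.

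Kit encodes the receptor tyrosine kinase for stem cell factor. It lies at chr5:75574916-75656722 on the plus strand, and introns make up 89.1% of it. In gCap it was at 394 and 372 CPM at day 1, 668 and 667 CPM at day 21 without hyperoxia, then 581 and 576 CPM after it. The sexes were close in each condition, and both hyperoxia libraries were below both room air libraries of day 21. Among ranked classes gCap was highest in every condition. Arterial cells followed at day 21, with 391 and 376 CPM in room air and 293 and 300 in the hyperoxia libraries. The Mast Basophils class of day 1 (32 and 24 cells, female and male) was too small to be ranked. Outside the endothelium the T Reg class held 96.5 and 121 CPM in room air and 111 and 160 after hyperoxia.

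Of the 6 genes, Kit had a promoter in the RefSeq table used here (GRCm38.p6), and its sequence before the earliest annotated start is shown. Kit and Cd93 were the 2 genes for which gCap lay above every other ranked class, with no overlap, in every condition. The stretch covers 179 bases at chr5:75574737-75574915 on the plus strand, written 5′ to 3′, with matches to searched motifs in capitals:
Kit: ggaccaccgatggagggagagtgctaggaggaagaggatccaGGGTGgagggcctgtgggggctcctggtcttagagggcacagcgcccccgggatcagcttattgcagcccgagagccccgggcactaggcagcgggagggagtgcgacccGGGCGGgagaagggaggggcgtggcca

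The 250 bases before the RefSeq start were 70.8% G or C with 17 CG dinucleotides, against medians of 52.0% and 6 over 27025 promoters. On both strands of 300 bases around the start, CACCC, a motif of KLF factors, matched once on the minus strand, 208 to 204 bases before the start, and 56.7% of all promoters held it. GGGCGG, a motif of SP factors, matched on the plus strand, 98 to 93 bases before the start, and 35.9% of promoters held it. No match was found for the ETS motif CCGGAA, which 15.2% of promoters held. Nor was there one for its variant CAGGAA, held by 30.4%. The SOX motif AACAAT (10.9% of promoters) and the E-box CACGTG (7.24%) were not found either. The same held for AGATAA, bound by blood and endothelial zinc finger factors (11.4%), and for the forkhead motif TGTTTAC (3.55%). The glucocorticoid receptor motif TGTTCT (19.0%) and the core promoter motif TATAAA (14.2%) had no match. The matched motifs did not overlap each other, and these matches describe letters in this window only.

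Plvap encodes the protein of the diaphragms that span endothelial fenestrae and caveolae. It lies at chr8:71497765-71511752 on the minus strand, with 85.8% of the gene in introns. In gCap it was at 569 and 520 CPM at day 1, 877 and 964 CPM at day 21 without hyperoxia, then 919 and 990 CPM after it. Arterial cells were higher at day 21, with 1222 and 1384 CPM in room air, and both hyperoxia libraries (1110 and 1195 CPM) also exceeded gCap. The aCap class held 44.9 to 86.8 CPM over all 6 libraries. Plvap thus separated aCap from the other endothelial classes and did not separate gCap from the arterial and venous classes.

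Cd93 encodes a transmembrane glycoprotein that takes part in endothelial adhesion and binds the matrix protein multimerin 2. It lies at chr2:148436640-148443563 on the minus strand, with 3.57% of the gene in introns. In gCap it was at 1207 and 1066 CPM at day 1, 1690 and 1517 CPM at day 21 without hyperoxia, then 1655 and 1624 CPM after it. The gCap class was above every other class in each condition. Venous cells came next at day 21, with 1387 and 1396 CPM in room air and 1217 and 1204 CPM in the hyperoxia libraries. The aCap class held 502 and 548 CPM at day 1, but 104 and 110 CPM at day 21 without hyperoxia, then 168 and 160 CPM after it.

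**Figure D1:**
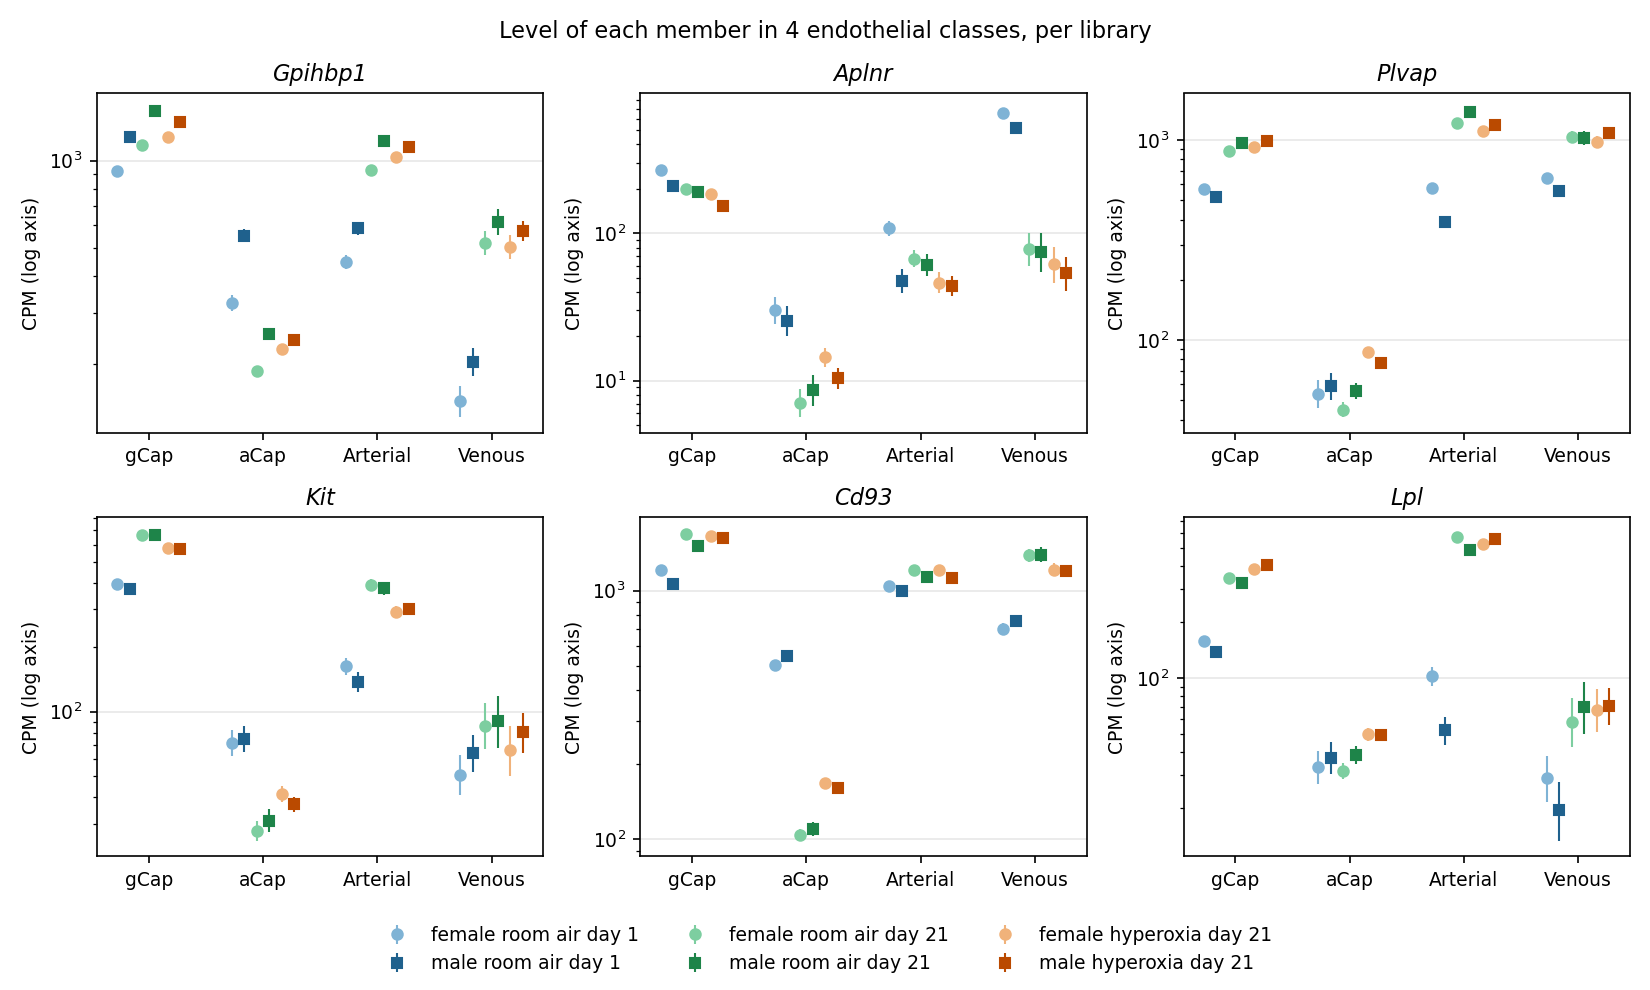
Level of each gene as CPM of the summed class (log axes) in 4 endothelial classes, 1 point per library, with exact Poisson 95% intervals as bars. The aCap points fall from day 1 to day 21 for Cd93, Kit and Aplnr, Aplnr falls in the venous class from 658 and 521 CPM to 78.6 and 75.2, and Lpl rises in gCap and arterial cells.

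Single gCap cells held few UMIs of Lpl and Aplnr and more of the others. The median gCap cell of the day 21 libraries held 10 to 11 UMIs of Gpihbp1, 11 to 14 of Cd93, 6 to 7 of Plvap, 4 to 5 of Kit, 2 of Lpl and 1 of Aplnr. The gCap cells had a median of 5203 to 8693.5 UMIs, so cells were thinned to 2000 UMIs each before shares were compared. Cells with fewer UMIs were left out of all thinned values. In gCap these were 113 of 2060 and 129 of 1683 cells at day 1 (female and male), and 9 to 21 cells per library at day 21. Gpihbp1 then had a UMI in 72.6% and 82.2% of gCap cells at day 1, 83.1% and 88.5% at day 21 without hyperoxia, then 84.6% and 87.8% after it. Lpl had one in 24.3% and 19.7%, 41.8% and 39.5%, and 46.0% and 48.6% in the same order. Without thinning Lpl was seen in 43.8% and 38.0%, 75.1% and 73.8%, and 76.4% and 77.7% of gCap cells. T cells, which should lack these genes, gave the background at day 21. With a median of 9735 to 15432 UMIs unthinned, at most 1.53% of thinned T cells held Gpihbp1 and at most 0.491% held Lpl.

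How many of the 6 genes a cell held differed by class. After thinning, gCap cells held a mean of 3.35 and 3.25 at day 1, 3.89 and 3.93 at day 21 without hyperoxia, then 3.91 and 3.97 after it. At least 4 genes were seen in 46.3% and 41.8% of gCap cells at day 1, and in 65.8% to 69.0% at day 21. Arterial cells came close, with means of 3.42 to 3.62 at day 21, and venous cells held 2.45 to 2.72. Of aCap cells, 55.2% to 60.2% held none of the 6 genes at day 21, against 27.1% and 17.2% at day 1. At least 3 genes were seen in 2.76% and 3.68% of aCap cells in room air and 6.40% and 5.12% after hyperoxia.

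**Figure D2:**
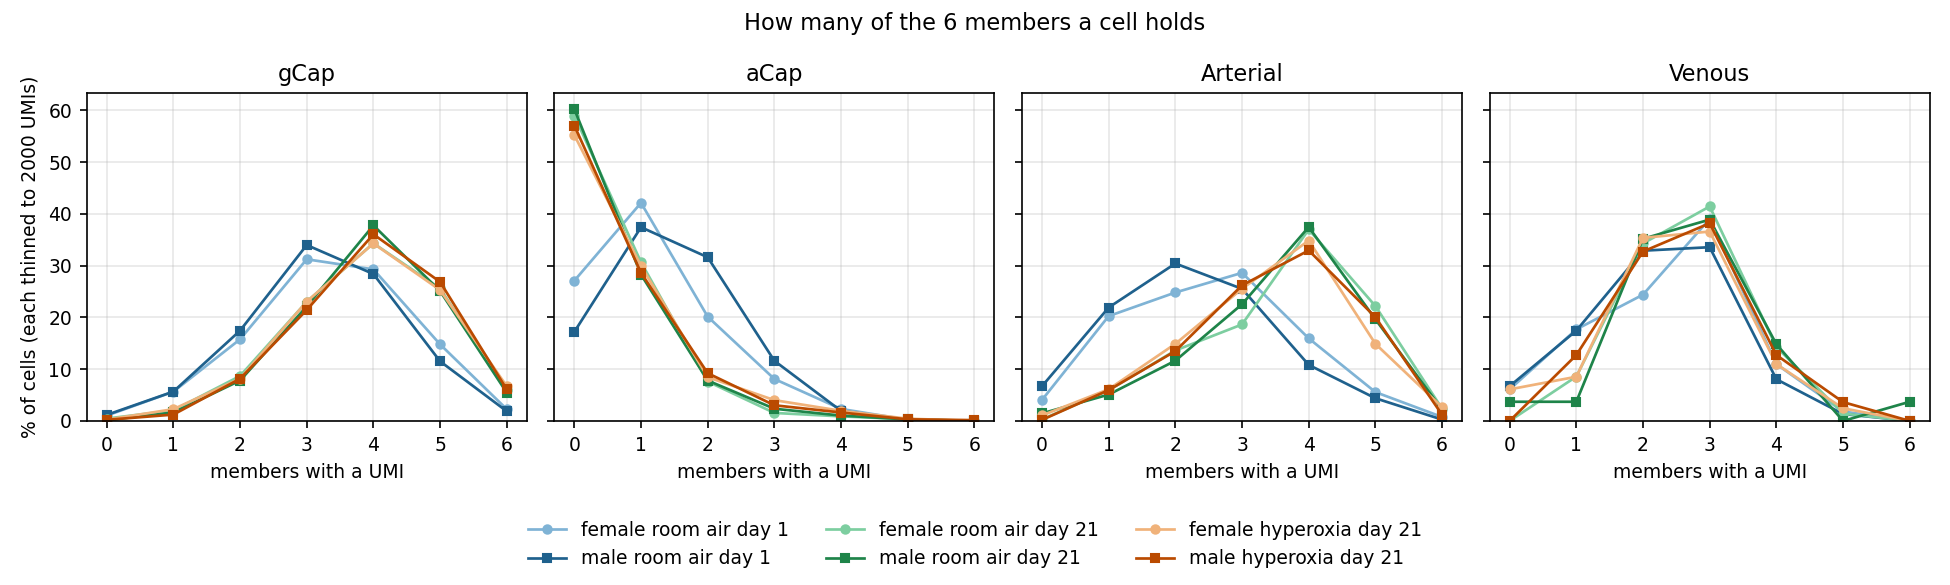
Share of cells (%) by the number of the 6 genes with a UMI, each cell thinned to 2000 UMIs, 1 line per library and 1 panel per class. In gCap the peak lies at 3 genes at day 1 and at 4 at day 21, and in aCap at day 21 it lies at 0.

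Within gCap, a UMI of Lpl was more frequent in cells with Plvap than in cells without it, and likewise for Plvap with Gpihbp1. Among thinned gCap cells of day 21, Lpl was seen in 43.3% to 51.4% of cells with a Plvap UMI and in 29.3% to 39.4% of cells without. Plvap was seen in 72.7% to 77.9% of cells with Gpihbp1 and in 50% to 62.0% of cells without. Aplnr showed no such relation to Lpl: 39.1% to 48.4% of cells with Aplnr held Lpl, and 39.7% to 48.6% of cells without. These shares describe cells of the same libraries, which are not replicates, and were not tested.

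Most UMIs of 5 of the genes lay in gCap. Among cells with a class, gCap held 69.6% to 86.0% of the UMIs of Gpihbp1, Aplnr, Plvap, Kit and Cd93 at day 21, and 51.8% to 65.6% at day 1. Lpl was divided between more classes, with alveolar macrophages and gCap holding the largest shares at day 21. At day 1, transient macrophages held 38.1% and 33.0% of Lpl UMIs, alveolar macrophages 23.5% and 26.3%, and gCap 12.9% and 9.84%. Epithelial classes also held Lpl at day 1: AT1 10.3% and 5.24%, and AT2 Lyz1+ 3.71% and 11.5%, above gCap in the male library. The AT2 class held 8.03% in the male library. At day 21 in room air alveolar macrophages held 59.9% and 58.8% and gCap 24.4% and 25.02%. After hyperoxia alveolar macrophages held 16.4% and 30.3% and gCap 57.5% and 47.1%. These shares leave out barcodes without a deposited class, which held 59.6% and 49.2% of all Lpl UMIs after hyperoxia and 33.4% and 51.02% at day 21 in room air. Those barcodes carried 5709 and 4304 CPM of alveolar macrophage markers after hyperoxia, against 573 and 1046 CPM in cells, so the shares depend on which barcodes were given a class. The level of Lpl within alveolar macrophages was 1188 and 1283 CPM in room air and 1042 and 1217 CPM after hyperoxia, while the class held 609 and 348 cells in room air and 136 and 308 after hyperoxia.

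Over 112 sums of a library and a class, Gpihbp1 correlated best with Clec14a (Pearson r of log2(CPM + 1) 0.97), Cdh5 and Glp1r (both 0.96). Aplnr was closest to Gpr182, Grrp1 and Sox17 (0.94, 0.93 and 0.93), Plvap to Tek, Ptprb and Cemip2 (0.97, 0.97 and 0.96), and Cd93 to Plvap, Clec14a and Tie1 (0.95, 0.94 and 0.94). Kit was closest to Fam124b, Adgrl4 and Sox13, at 0.84, 0.83 and 0.83. For Lpl the highest values were 0.77 for Mertk, a receptor of phagocytes, 0.76 for S100a1 and 0.76 for Rin2. Among the 6 genes, Gpihbp1 and Plvap were closest (0.96) and Kit and Lpl farthest (0.31). The sums share libraries, so these are descriptions with no test.

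The change from day 1 to day 21 in room air addressed the maturation of the lung. In gCap, Lpl rose 2.08-fold, Kit 1.60-fold and Plvap 1.55-fold, Cd93 rose 1.3-fold, Aplnr fell, and Gpihbp1 did not pass the test. With edgeR's quasi-likelihood test over the 4 room air libraries and sex as a covariate, the log2 fold changes were 1.05 ± 0.12 (SE) for Lpl (adjusted p 2.9e-11), 0.68 ± 0.11 for Kit (7.2e-07), 0.64 ± 0.11 for Plvap (2.5e-06) and 0.38 ± 0.11 for Cd93 (0.0022). Aplnr fell by 0.39 ± 0.12 on the log2 scale (adjusted p 0.0028), and Gpihbp1 stood at 0.17 ± 0.11 (0.15). All 5 called genes moved the same way in both sexes. The background was broad: 67.6% of the 13646 genes tested in gCap were called at an adjusted p under 0.05, so 5 of 6 is a share near the background. Markers of other cell types moved in gCap over the same interval, in both directions. Of 5 tested markers of epithelium 4 were lower, among them Sftpc at −1.74 ± 0.14, Ager at −2.57 ± 0.15 and Epcam at −4.01 ± 0.37, and the list summed to 912 and 1181 CPM at day 1 and 476 and 415 CPM at day 21 without hyperoxia. Of 8 monocyte and neutrophil markers 7 were lower, among them S100a8 at −3.06 ± 0.13 and S100a9 at −2.60 ± 0.12, and their sum went from 1110 and 440.3 CPM to 201 and 80.7 CPM. Aerocyte markers (6 of 11 higher, 4 lower) summed to 1533 to 1562 CPM at day 1 and 2079 to 2098 CPM at day 21, and artery markers (4 of 8 higher, 4 lower) to 1391 to 1536 CPM, then 1810 to 1862 CPM. Chil3 of alveolar macrophages (1.52), Pdgfrb of mesenchyme (0.93) and Cd79a of lymphocytes (1.61) were also called higher. The part of these markers in the changes of the 6 genes was not tested.

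These changes depend on how the libraries are scaled. Scaling to genes without introns moved the median log2 fold change of all gCap genes from 0.02 to 0.76, and turned Aplnr to 0.35 (adjusted p 0.036), below that median. Under the same scaling Lpl stood at 1.79, Kit at 1.41, Plvap at 1.37, Cd93 at 1.11 and Gpihbp1 at 0.91, all called and above the median. Of all gCap calls 52.0% were higher at day 21, against 44.2% with upper-quartile scaling and 85.9% when scaled to genes without introns, and the split moved alike in aCap (53.4%, 45.9% and 83.7%), arterial (52.1%, 44.5% and 86.0%) and venous cells (51.7%, 44.6% and 86.2%). Kit, Plvap and Lpl, the 3 genes that rose most in gCap, have 61.1% to 89.1% of their length in introns (bases outside every annotated exon). Aplnr, Cd93 and Gpihbp1 have 0% to 10.5%. The same 3 genes rose most in arterial cells, but in venous cells Gpihbp1 rose most, and in aCap Kit fell. Whether reads in introns were counted alike at both ages was not tested. The call of Aplnr was lost without the female day 1 library (log2 fold change −0.24, adjusted p 0.28), the female day 21 library (−0.41, 0.071) or the male day 21 library (−0.35, 0.11). That of Cd93 was lost without either day 1 library (0.44 and 0.31, adjusted p 0.11 and 0.31 for the female and male library left out) or the female day 21 library (0.31, 0.081), and with upper-quartile scaling (0.23, 0.060).

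In aCap, 4 of 6 genes were called and all 4 were lower at day 21, where 53.5% of genes tested were called in either direction. Cd93 fell by 2.38 ± 0.16 on the log2 scale, a level 5.21 times lower (adjusted p 2.9e-48, edgeR). Aplnr fell by 1.92 ± 0.24 (1.8e-14), Kit by 1.40 ± 0.17 (3e-15) and Gpihbp1 by 1.04 ± 0.15 (9.4e-11). Scaling to genes without introns left all 4 lower and called, at −1.83, −1.37, −0.85 and −0.49. Plvap (−0.25, adjusted p 0.21) and Lpl (−0.10, 0.68) did not pass the test. With scored doublets left out both were called lower, at −0.96 and −0.58, while scaling to genes without introns put them at 0.30 (not called) and 0.45 (adjusted p 0.044). Whether age changes differed between gCap and aCap was not tested.

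In the arterial class, Lpl rose 6.65-fold (log2 fold change 2.73 ± 0.16, adjusted p 6.4e-18, edgeR), Plvap 2.56-fold (1.35 ± 0.14, 8.4e-11), Kit 2.38-fold (1.25 ± 0.14, 7e-10) and Gpihbp1 1.90-fold (0.92 ± 0.13, 8.6e-08). These were 4 of 6 genes against 58.0% of all genes tested. In the venous class 5 of 6 were called against 49.0%. Aplnr fell by 3.06 ± 0.24 on the log2 scale there, a level 8.36 times lower at day 21 (adjusted p 3.7e-34), and stayed called at −2.35 when scaled to genes without introns. Gpihbp1 rose by 1.58 ± 0.21, Lpl by 1.25 ± 0.30, Cd93 by 0.81 ± 0.19 and Plvap by 0.65 ± 0.19 in venous cells. The call of Lpl in venous cells was lost with DESeq2 (1.28, adjusted p 0.12), that of Plvap without either day 1 library (0.71 and 0.55, adjusted p 0.093 and 0.22), and that of Cd93 without the female day 1 library (0.70, 0.095). Of the 54 venous cells of the male day 21 library, 92.6% were scored doublets, so values without doublets fall below the minimum of 50 cells there and are not given for single genes in venous cells.

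**Figure D3:**
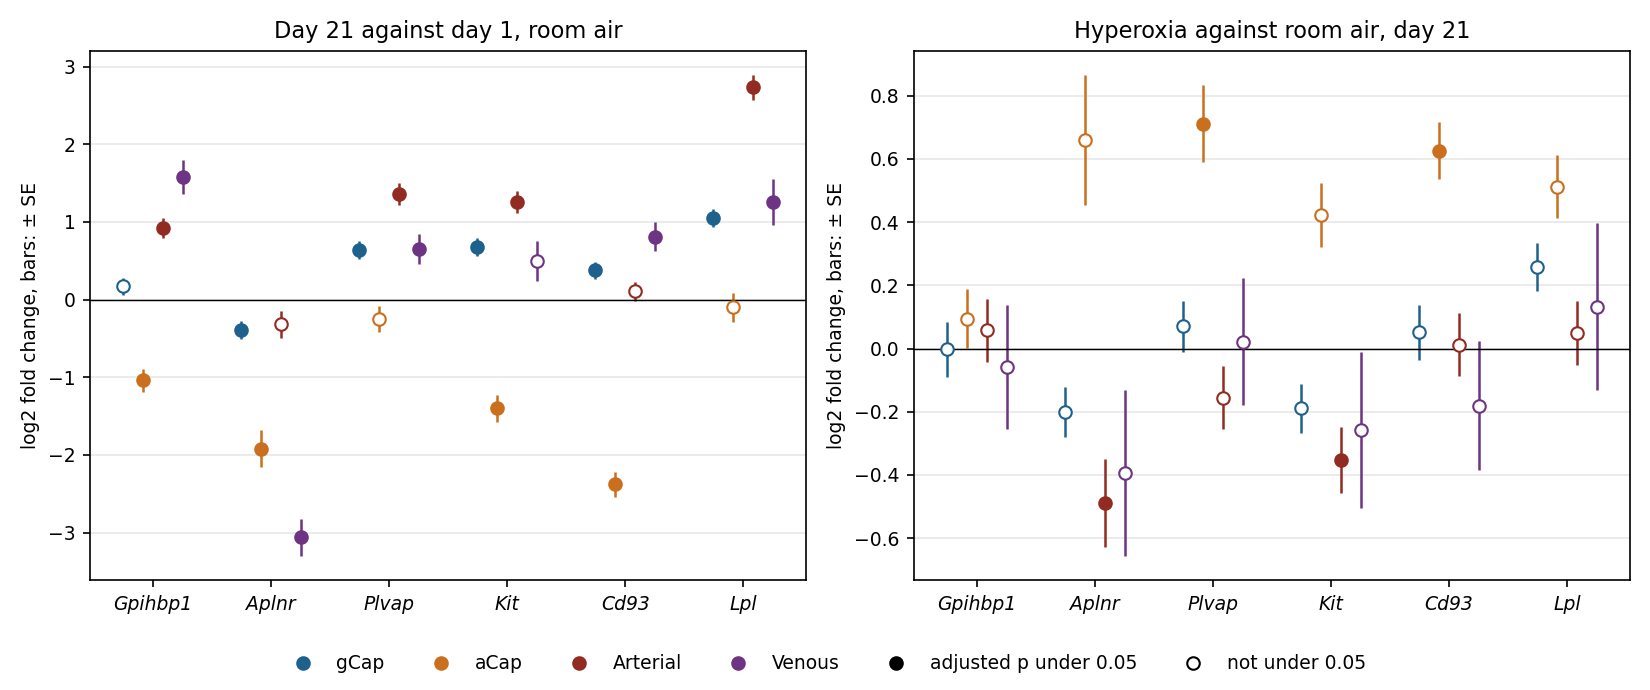
Log2 fold change of each gene with its standard error in 4 endothelial classes, for day 21 against day 1 in room air and for hyperoxia against room air at day 21, with filled points where the adjusted p was under 0.05. In the age panel aCap and the other classes lie on opposite sides of 0 for Gpihbp1, Kit and Cd93, and the hyperoxia panel spans −0.49 to 0.71.

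Other genes around these receptors and enzymes differed in gCap between day 1 and day 21. The ages also differ in Cell Ranger version, so age and counting cannot be told apart in the values here and in the lists that follow. Of 18 other genes of lipoprotein lipase and fatty acid uptake tested, 6 were higher and 10 lower at day 21, where 67.6% of all gCap genes were called, with a median log2 fold change of −1.02 against 0.02 for all genes. Cd36, a fatty acid transporter, rose from 834 and 518 CPM to 2577 and 2503 CPM (1.83 ± 0.12), and Lipg, endothelial lipase, rose by 2.43 ± 0.38 from under 1 CPM. Fabp4, a fatty acid binding protein, fell from 169 and 85.7 CPM to 2.89 and 5.73 CPM (−5.02 ± 0.21). Tcf15 and Meox2, which form a transcription factor pair known to drive fatty acid uptake in endothelium, fell by 2.88 ± 0.18 and 2.61 ± 0.40. The list counts, here and for the lists that follow, come from 1 scaling, and their shares of called genes are to be read against 67.6%.

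Of 17 genes of the Kit signalling list, 12 were higher and 2 lower, with a median of 0.53. Gab2, an adaptor below Kit, rose from 15.9 and 12.1 CPM to 323 and 277 CPM (4.30 ± 0.14), and Mitf rose by 3.69 ± 0.24. Of 12 genes of the apelin receptor list, 4 were higher and 6 lower (median −0.28). Gnaq rose by 1.56 ± 0.12, and Gnai1, which encodes an inhibitory G protein subunit, fell by 1.08 ± 0.13. Of 13 genes of the diaphragm, caveola and VEGF list, 5 were higher and 6 lower (median 0.11), among them Flt1 at 1.57 ± 0.12 and Cavin3 at −2.31 ± 0.12. Of 10 genes around Cd93, 3 were higher and 3 lower (median −0.10), with Thbd at 0.80 ± 0.11 and Fn1 at −1.18 ± 0.17. Of the 10 other general capillary markers 9 were higher (median 1.13), led by Sema3c at 3.88 ± 0.12 and Cadm1 at 3.37 ± 0.13.

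The comparison of hyperoxia with room air at day 21 asked how these cells stood after the pups' return to room air. No gene of the 6 was called in gCap, where edgeR called 361 of 14241 genes, or 2.53%. DESeq2 called 0 of them as well, and 3 (Lpl, Aplnr and Kit) had an unadjusted p under 0.05 in edgeR. Lpl came nearest. Its log2 fold change was 0.26 ± 0.08 (adjusted p 0.082), higher in both sexes, with log2 ratios of 0.17 in females and 0.31 in males. Lpl was called when no filter was set on low counts (0.27, adjusted p 0.045), when Xist-free cells of the female hyperoxia library were left out (0.30, 0.019) and without the female room air library (0.31, 0.037). In that female library cells without Xist held 355 CPM of Lpl and cells with Xist 404 CPM.

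Kit stood at −0.19 ± 0.08 (adjusted p 0.31, edgeR) and Aplnr at −0.20 ± 0.08 (0.25), both lower in both sexes. Their within-sex log2 ratios were −0.20 and −0.21 for Kit and −0.11 and −0.33 for Aplnr (female and male). Plvap (0.07 ± 0.08), Cd93 (0.05 ± 0.09) and Gpihbp1 (−0.00 ± 0.09) lay closer to 0. Gpihbp1 was higher in females (0.09) and lower in males (−0.13), and Cd93 was lower in females (−0.03) and higher in males (0.10). Leaving out scored doublets changed none of the 6 log2 fold changes in gCap by more than 0.02.

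Other genes of the same lists gave few calls in gCap after hyperoxia. Igfbp7, a secreted ligand of Cd93, rose from 594 and 548 CPM in room air to 875 and 1032 CPM (0.75 ± 0.09, adjusted p 3.4e-06, edgeR) and was the 1 called gene of 10 around Cd93. Nrp2, a VEGF co-receptor, rose by 0.91 ± 0.15 as the 1 of 13 in its list. Some markers of other cell types were also called in gCap. Higher were, of 6 lymphatic markers tested Mmrn1 (1.46 ± 0.33, from 1.87 and 0.513 CPM to 4.70 and 1.71 CPM) and Lyve1 (0.43 ± 0.08, from 518 and 460 CPM to 637 and 664 CPM), and of 8 monocyte and neutrophil markers Nr4a1 (0.94 ± 0.14). Of 8 artery markers Gja4 was lower (−0.28 ± 0.08, adjusted p 0.045, edgeR). Their part in these values was not tested. Of 19 lipoprotein lipase and fatty acid genes, Tcf15 rose by 0.80 ± 0.18 from 4.88 and 5.39 CPM to 8.86 and 8.76 CPM and Fabp4 fell by 1.2 ± 0.32. None of 12 apelin receptor genes and none of 17 Kit genes was called, and their medians were 0.07 and −0.04 against −0.00 for all genes. Of 10 other general capillary markers, Glp1r (−0.34 ± 0.08) and Cadm1 (−0.33 ± 0.08) fell and none rose. Of 12 aerocyte markers, Car4 (0.48 ± 0.08) and Prx (0.31 ± 0.08) rose in gCap. The sex and interaction fits called no gene of the pathway lists or the other general capillary markers in gCap. Of the monocyte and neutrophil markers, Nr4a1 was called higher in females (1.19 ± 0.16, adjusted p 0.027, edgeR), and S100a8 (−2.80 ± 0.22), S100a9 (−2.47 ± 0.20) and Retnlg (−2.36 ± 0.32) were called in the interaction.

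In aCap, Plvap and Cd93 were called higher after hyperoxia, 2 of 6 genes where 0.709% of genes tested were called. Plvap was at 44.9 and 55.8 CPM in room air and 86.8 and 76.6 CPM after hyperoxia, a log2 fold change of 0.71 ± 0.12 (adjusted p 0.032, edgeR). Cd93 was at 104 and 110 CPM in room air and 168 and 160 after hyperoxia (0.63 ± 0.09, adjusted p 0.016). Both hyperoxia libraries lay above both room air libraries for these genes, and how often this held over all genes was not counted. Lpl (0.51, adjusted p 0.056), Kit (0.42, 0.14) and Aplnr (0.66, 0.31) were also above 0 but did not pass the test, and Gpihbp1 stood at 0.10 (0.97). Without the female hyperoxia library neither Plvap (0.61, adjusted p 0.25) nor Cd93 (0.59, 0.41) was called, nor was Cd93 without the male one (0.66, 0.078). Without sex as a covariate both calls were lost (0.71 and 0.63, adjusted p 0.14 and 0.075).

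These aCap values moved together with scored doublets. A doublet is a droplet that caught a pair of cells, and here the barcodes with the highest Scrublet scores were marked. The score was computed without leaving out the 6 genes, so aCap cells holding general capillary genes can score high for that reason. A high score does not show that a droplet held a pair of cells, and the cause was not tested. In aCap scored doublets made up 7.21% and 8.36% of cells in room air and 16.04% and 15.9% after hyperoxia. With them left out no gene of the 6 was called: Plvap stood at 0.33 (adjusted p 0.24) and Cd93 at 0.08 (0.99). The aCap cells holding at least 2 of the 5 genes other than Lpl made up 8.38% and 10.2% of thinned cells in room air and 11.9% and 12.6% after hyperoxia. Of these cells 36.8% and 50.7% in room air and 71.8% and 61.3% after hyperoxia were scored doublets. They had a median of 14458 to 17228 UMIs, against 11060 to 12231 in aCap cells with none of the genes. They also held less of the aerocyte list (10638 to 12683 CPM against 14546 to 15541) and more of the other general capillary markers (6608 to 7243 CPM against 4430 to 4998). Within the aCap class of the female hyperoxia library, cells with Xist held 102 CPM of Plvap and cells without it 45.8 CPM.

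**Figure D4:**
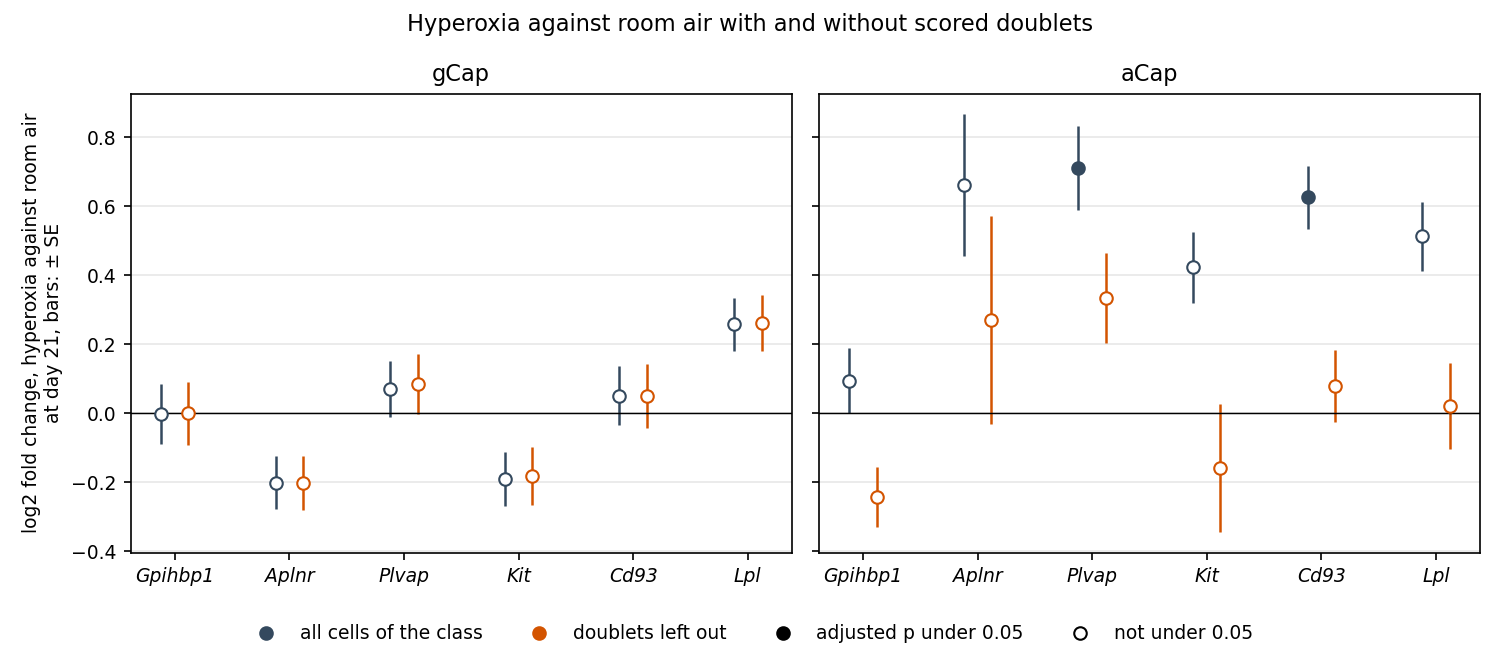
Log2 fold change of hyperoxia against room air at day 21 with its standard error, with all cells and with scored doublets left out, in gCap and aCap, with filled points where the adjusted p was under 0.05. The gCap points keep their places, while in aCap Plvap goes from 0.71 to 0.33 and Cd93 from 0.63 to 0.08.

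The difference between the gCap and aCap responses was tested within libraries. For 5 of the 6 genes the hyperoxia effect was lower in gCap than in aCap, where 2.59% of 14085 genes differed. The differences on the log2 scale were −0.89 ± 0.14 for Aplnr (adjusted p 1.9e-06, edgeR), −0.66 ± 0.07 for Plvap (6.1e-13), −0.63 ± 0.08 for Kit (2.3e-09), −0.59 ± 0.05 for Cd93 (1.4e-15) and −0.27 ± 0.08 for Lpl (0.043). Gpihbp1 did not pass the test (−0.11 ± 0.05, 0.34). With scored doublets left out none of these 5 was called, at −0.45, −0.25, −0.01, −0.03 and 0.23, and Gpihbp1 was called at 0.24 (adjusted p 0.0012). The call of Aplnr was also lost with DESeq2 (−0.85, adjusted p 0.087) and without the female room air library (−0.68, 0.097). That of Lpl was lost under each of 9 further alternatives and kept without the male room air library.

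In arterial cells, Aplnr and Kit were called lower after hyperoxia, 2 of 6 genes against 2.12% of genes tested. Aplnr went from 67.4 and 61.3 CPM to 46.4 and 44.1 CPM (−0.49 ± 0.14, adjusted p 0.028, edgeR). Kit went from 391 and 376 CPM to 293 and 300 CPM (−0.35 ± 0.10, 0.037). The groups did not overlap for either gene, but how often this held over all genes was not counted. Both calls were lost in fits without any 1 of the 4 libraries, which also had no sex term. The log2 fold changes there stayed between −0.56 and −0.32. Both calls were also lost with DESeq2, with no filter on low counts, with scored doublets left out, with equal cell numbers and without sex as a covariate. Without Xist-free cells Aplnr was no longer called (−0.47, adjusted p 0.062) and Kit still was (−0.39, 0.012). In the venous class edgeR called none of the 6, against 0.619% of genes tested, and 0 had an unadjusted p under 0.05.

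None of the 6 genes was called between females and males in gCap (0.0909% of genes called, edgeR), aCap (0.0749%), arterial cells (0.234%) or venous cells (0.167%). Gpihbp1 was the nearest in gCap at −0.33 ± 0.07 (adjusted p 0.32), lower in females in all 3 conditions, and it was called with DESeq2 (−0.34, adjusted p 0.028) and with no filter on low counts (−0.32, 0.0026). Its values in the other endothelial classes were −0.44 in aCap, −0.30 in arterial and −0.31 in venous cells, and none was called. In aCap it was called with no filter on low counts (−0.45, adjusted p 0.00035, edgeR). It was also called in the fits without either hyperoxia library (−0.62 for each). A hyperoxia library left alone is taken up by its own condition term. These fits therefore rest on the same room air libraries and are not separate results. Aplnr in arterial cells was called without the female hyperoxia library (0.64), a fit that likewise compares the sexes in room air only. In the other 10 classes together 0 of 55 tests of these genes were called, against 0.199% of genes. The interaction of sex and hyperoxia gave no call among the 6 in gCap (0.267% of genes called), aCap (0.587%), arterial cells (0.132%) or venous cells (0.173%). It was fitted to all 6 libraries, setting the sex difference after hyperoxia against 1 room air difference shared by both ages. In 4 further classes together 0 of 23 tests were called, against 0.402%.

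Outside the endothelium calls after hyperoxia were made in 4 classes. In alveolar macrophages after hyperoxia 5 of 6 genes were called higher, where 10.9% of genes were called. Gpihbp1 went from 3.72 and 9.04 CPM to 68.3 and 61.3 CPM (log2 fold change 3.37 ± 0.22, adjusted p 1.5e-11, edgeR) and Plvap from 2.87 and 5.31 CPM to 62.7 and 47.3 CPM (3.74 ± 0.23). Kit (3.10), Aplnr (2.39) and Cd93 (1.38) were called as well, and Lpl was not (−0.19, adjusted p 0.57). All 6 of a list of pan-endothelial markers were called higher in the same class, with a median of 2.95, and their sum went from 51.0 and 76.1 CPM to between 472 and 696 CPM. Alveolar macrophages holding at least 2 of the 5 genes other than Lpl were 0.657% and 0.862% of the class in room air and 8.89% and 6.49% after hyperoxia, and 100% and 90% of those after hyperoxia were scored doublets. With scored doublets left out only Plvap was called of the 5 genes then tested, at 1.65 (adjusted p 0.0086), and Cd93 stood at −0.08. Aplnr was not tested there.

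In nonclassical monocytes, 4 of 6 genes were called higher (6.03% of genes called): Plvap at 2.39, Gpihbp1 at 2.01, Cd93 at 1.98 and Kit at 1.54, with all 6 pan-endothelial markers called. Without scored doublets only Cd93 was called, at 1.01 (adjusted p 0.033). The call of Kit was also lost with DESeq2 (1.57, adjusted p 0.38), with equal cell numbers (1.54, 0.074) and without the female hyperoxia library (1.27, 0.21). In myofibroblasts Gpihbp1 (2.71), Cd93 (2.07) and Plvap (1.67) were called of 5 tested (3.76% of genes called), with 4 of 5 pan-endothelial markers. All 3 calls were lost with DESeq2, without sex as a covariate and without either room air library or the male hyperoxia library. Over the alternatives Gpihbp1 ranged from 2.09 to 3.97, Plvap from 1.04 to 2.11 and Cd93 from 0.88 (without the male hyperoxia library) to 4.59 (without the male room air library). Of the myofibroblasts holding at least 2 of the 5 genes after hyperoxia, 2 and 5 cells, 100% and 80% were scored doublets, and without scored doublets these 3 genes did not pass the filter on low counts. In B cells Cd93 was called at 2.24 (adjusted p 0.047; 1.68% of genes called), with 4 of 6 pan-endothelial markers. That call was lost under 5 alternatives, with values of 2.09 to 2.55. In matrix fibroblasts none was called (0.144%), and in 5 other classes together 0 of 27 tests were called (0.52% of genes).

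Cells with endothelial markers made up much of the deposited matrix fibroblast class at day 21. At day 21, 46.4% and 47.1% of its thinned cells in room air and 49.1% and 50.4% after hyperoxia held at least 2 of the 5 genes other than Lpl, against 3.54% and 4.38% at day 1. Those day 21 cells summed to 4781 to 6272 CPM of pan-endothelial markers and 517 to 1262 CPM of mesenchymal markers. The cells of the class with none of the genes summed to 58.3 to 232 CPM and 10753 to 26948 CPM of the same lists. Scored doublets were 4.84% to 22.2% of the cells with at least 2 genes and 75.5% to 100% of the cells with none. In this class at day 21 the score thus marked mostly cells with mesenchymal markers. Leaving scored doublets out kept most cells with endothelial markers. All 6 genes were called higher at day 21 than at day 1 in this class, by 2.45 to 3.21 on the log2 scale, where 48.0% of genes were called. With scored doublets left out, which made up 59.8% and 62.1% of the class at day 21 in room air and left both libraries under 50 cells, the values were 7.64 for Cd93, 7.40 for Gpihbp1, 6.90 for Plvap, 6.89 for Kit, 6.63 for Aplnr and 3.52 for Lpl. With equal cell numbers Gpihbp1 stood at 5.32. For the cells with at least 2 genes the markers went against the class name.

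**Figure D5:**
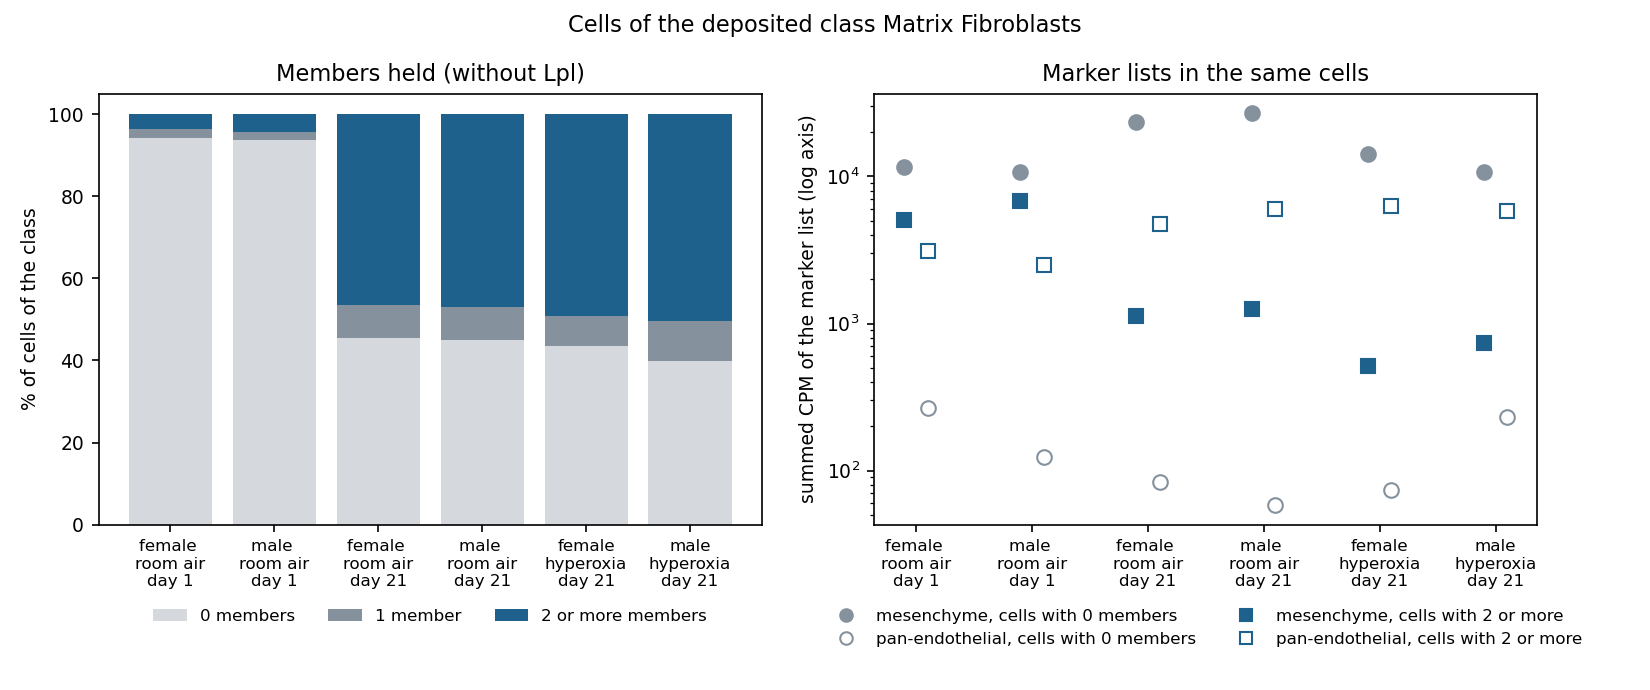
Cells of the deposited matrix fibroblast class by how many of the 5 genes other than Lpl they hold (left, % of cells thinned to 2000 UMIs) and the summed CPM (log axis) of pan-endothelial and mesenchymal markers in cells with none and with at least 2 of the genes (right), per library. From day 1 to day 21 the share with at least 2 genes goes from 3.54% and 4.38% to between 46.4% and 50.4%.

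With age, in myofibroblasts Kit (2.80) and Lpl (3.75) rose and Gpihbp1 (−1.61) and Cd93 (−0.94) fell, 4 of 6 genes against 50.8%. Kit stood there at 12.3 and 9.12 CPM at day 1 and 83.0 and 74.6 CPM at day 21, and Lpl at 10.0 and 5.01 CPM and 97.1 and 123 CPM. The call of Gpihbp1 was kept under 6 of 10 alternatives and that of Cd93 under 3 of 10. Both were lost with DESeq2, when scaled to genes without introns and without the male day 1 (−1.17 and −0.94) or the female day 21 library (−0.98 and −0.21). Of the 56 myofibroblasts of the female day 21 library 69.6% were scored doublets. With doublets left out, which left under 50 cells there, Kit stood at 6.09 and Lpl at 4.57, both called, and Gpihbp1 and Cd93 did not pass the filter on low counts. In NK cells Cd93 (−1.56) and Kit (−2.40) fell, 2 of 5 against 45.1%, and the call of Cd93 was lost with DESeq2, when scaled to genes without introns and without either day 1 library. Of the NK cells, 95.9% in the male day 1 library and 62.2% in the female day 21 room air library were scored doublets, and their part in these values was not tested. In B cells Aplnr (−1.78), Kit (−1.32) and Cd93 (−0.73) fell, 3 of 6 against 48.9%, in alveolar macrophages Cd93 fell (−0.73), 1 of 5 against 53.8%, and in neutrophils Aplnr fell (−1.44), 1 of 6 against 63.6%. The calls in B cells, alveolar macrophages and neutrophils were all lost with DESeq2 and when scaled to genes without introns, and Cd93 in alveolar macrophages turned to 0.27 without the male day 1 library. The interaction of sex and hyperoxia gave 3 calls outside the endothelium: Gpihbp1 and Plvap in neutrophils (1.13% of genes called) and Plvap in B cells (0.404%). The call of Gpihbp1 was lost under all 7 alternatives run, and both calls of Plvap were kept under 4 of 7.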

How the data were processed

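The deposited values were whole-number UMI counts per gene and barcode, made with Cell Ranger per the file headers (6.0.0 at day 1, 7.0.1 at day 21), and the authors deposited a class for each kept cell. The submitters' processing notes list Cell Ranger 6.0.0, Seurat 4.1.1 and mm10, and whether reads in introns were counted is not given in the sources used here. Cells of a library and class were summed where at least 50 cells were present in every library of the comparison, a minimum set on all cells and not again under the alternatives. Sums were tested with edgeR 4.0.16 (TMM, filterByExpr, quasi-likelihood; limma 3.58.1, R 4.3.3), and "called" means a Benjamini-Hochberg adjusted p under 0.05 over all genes of the class. SE is the log2 fold change divided by the root of F. Hyperoxia and age were fitted with sex, sex and the sex by hyperoxia interaction with condition, and the gCap and aCap difference with library as a block. DESeq2 1.42.0 was an alternative, with upper-quartile scaling, no filter, TMM from genes without introns, equal cells, a stricter cell filter (1000 genes, 10% mitochondrial), no covariate and each library left out. For hyperoxia, age and the class difference, the fits with a library left out also had no sex term. Scrublet (scanpy 1.11.5) scored doublets. Its own threshold marked 0.177% to 8.19% of cells per library, so the highest scores at 0.8% per 1000 barcodes were marked, a choice made after seeing the data. Intervals are exact 95% ones. The fits were tested on simulated data. At a log2 change of 0.5 the hyperoxia fit recovered 53.7% of changed genes in gCap, 44.8% in aCap, 34.3% in arterial and 10.4% in venous cells. In gCap the sex fit recovered 41.8% and the interaction fit 5.97%. At a log2 change of 1 the values were 76.1%, 67.2%, 82.1%, 43.3%, 83.6% and 37.3% in the same order. A gene that was not called can thus have changed by such an amount. The named genes were the 6, the 3 genes most correlated with each, and up to 3 called genes per list and direction. The 6 genes and the lists were chosen with earlier results of these data known.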

Additional observations from a re-analysis of the deposited data

Results flagged for a closer look

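For 5 genes the hyperoxia effect differed between gCap and aCap by a direct test, lower in gCap by −0.89 (Aplnr), −0.66 (Plvap), −0.63 (Kit), −0.59 (Cd93) and −0.27 (Lpl) on the log2 scale. None of the 5 was called with scored doublets left out.

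The sex by hyperoxia interaction was fitted with the day 1 libraries included, so its values are not contrasts of day 21 alone. It was called for Plvap in B cells (−3.10 ± 0.48, adjusted p 0.013, edgeR), a smaller effect in females. Plvap there stood at 25.6 and 4.56 CPM in room air and 82.6 and 242 CPM after hyperoxia (female and male). The call was lost with DESeq2 (adjusted p 0.92), with scored doublets left out (−4.26, 1) and without Xist-free cells (−2.73, 0.098). Scored doublets were 19.1% and 6.41% of the B cells in room air and 16.96% and 30.5% of those after hyperoxia, and pan-endothelial markers summed to 665 and 525 CPM, then 1033 and 1989 CPM. The part of these markers in the call was not tested. In neutrophils it was called for Gpihbp1 (−1.46 ± 0.41, 0.040) and Plvap (−1.98 ± 0.47, 0.0048). The call of Gpihbp1 was lost under all 7 alternatives run, with adjusted p of 0.059 to 1. That of Plvap was lost with DESeq2 (adjusted p 1), with scored doublets left out and without Xist-free cells (−2.08, 0.072). With scored doublets left out these stood at 0.05 and −0.25.

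Barcodes without a deposited class, which no comparison used, held 421 CPM of Lpl in the female and 365 CPM in the male hyperoxia library, against 169 and 229 CPM in cells with a class. The day 21 room air libraries also held more there, 341 and 326 CPM against 250 and 207. Alveolar macrophage markers summed to 5709 and 4304 CPM in those barcodes and 573 and 1046 CPM in cells of the hyperoxia libraries, and to 4368 and 2924 CPM against 2234 and 1507 CPM at day 21 in room air. Their part in the Lpl values was not tested.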

How the results depend on the processing

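Numbers of genes called after hyperoxia changed with several choices. In gCap (361) they were 78 with DESeq2, 237 with equal cells, 18 without the sex covariate and 125 to 710 with a library left out. In aCap (92) they were 36 with DESeq2, 153 with upper-quartile scaling, 346 with no filter, 308 without doublets, 153 with equal cells, 8 without the covariate and 82 to 541 with a library left out. In arterial cells (236) they were 11 with DESeq2, 88 without doublets, 24 without the covariate and 11 to 69 with a library left out. In venous cells (53) they were 2 with DESeq2, 85 with no filter, 0 without doublets (with under 50 cells in 1 library), 11 without Xist-free cells, 8 without the covariate and 34 to 53 with a library left out. Of the 6 genes, gCap gave 1 with no filter, 1 without Xist-free cells and 0 to 1 with a library left out. The aCap class (2) gave 5 with no filter, 0 without doublets, 4 with equal cells, 0 without the covariate and 0 to 5. The arterial class (2) gave 0 with DESeq2, no filter, without doublets, equal cells, no covariate and any library left out, and 1 without Xist-free cells, and the venous class gave 0 to 0.

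With age DESeq2 called 3419 genes in aCap, 3461 in arterial and 2015 in venous cells, where leaving out doublets gave 1905, again with under 50 cells in 1 library. With a library left out the counts were 7477 to 8118 in gCap, 4962 to 5779 in aCap, 4941 to 5825 in arterial and 3405 to 4456 in venous cells, and of the 6 genes 3 to 4, 4 to 5, 4 to 5 and 3 to 5. Sex in gCap (13 genes) gave 24 with DESeq2, 141 with no filter, 76 in the day 21 libraries and 54 to 101, and of the 6 genes 1 with DESeq2, 1 with no filter and 0 to 0. The interaction in gCap (40) gave 5 with DESeq2 and 23 without Xist-free cells, and could not be fitted with a library left out. The class difference (365) gave 28, 226 with upper-quartile scaling, 234 without doublets and 112 to 224, and of the 6 genes (5) 3 with DESeq2, 1 without doublets and 3 to 5.

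Directions reversed with doublets left out for Cd93 after hyperoxia in alveolar macrophages (−0.084), Plvap with age in myofibroblasts (1.87, with under 50 cells in 1 library), Gpihbp1 in the neutrophil interaction (0.049), and Gpihbp1 (0.24) and Lpl (0.23) in the class difference. With scaling to genes without introns Aplnr in gCap (0.35) and Lpl in aCap (0.45) reversed with age, as did Plvap in neutrophils (0.76). Cd93 in alveolar macrophages ranged from −1.51 to 0.27 and Lpl in neutrophils from −1.06 to 0.92 with age when a library was left out. The cause was not tested. A block on replicate numbers could not be fitted, since each group had 1 library. The fits paired libraries by sex as a covariate, and classes by library as a block.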
